A study of Homo sapiens with 8 samples.

Results

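The genes described here are 39 genes of the hypoxia response and of glycolysis, given as a fixed list, of which 36 were measured among 18404 genes by a probe set with a single gene symbol. The other three, CA9, PGAM1 and SLC16A3, had no such probe set in the annotation used here and were not analysed here. The comparisons rest on 8 Affymetrix arrays of total RNA, 1 for each hairpin in NCI-H1299 (H1299) and in NCI-H2009 (H2009), both human lung cancer lines. In all groups the cells had 2 days of lentivirus infection and then 2 days in puromycin, and RNA was taken on day 4. They grew in RPMI with serum, and the labels name no step at low oxygen. In each line, 2 arrays had short hairpin RNAs against PTK7, here PTK7-1 and PTK7-2, and 2 had control hairpins against GFP and luciferase (LUC). The untreated parental lines were not analysed here, so every group carries a lentivirus and a hairpin, and each line stands for itself only.

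Hypoxia-inducible factor (HIF) is a pair of an oxygen-regulated alpha subunit, encoded by HIF1A or EPAS1, and the constant partner ARNT. In the presence of oxygen, prolyl hydroxylases such as those encoded by EGLN1 and EGLN3 mark the alpha subunit for destruction through VHL. When oxygen is short the subunit persists, binds hypoxia response elements and raises genes for glucose uptake, glycolysis, blood vessel growth, collagen modification and mitophagy. This control acts mainly on the protein, so a transcript level of HIF1A or EPAS1 is not a measure of HIF activity. Many cancer lines run glycolysis at a high rate also with oxygen present.

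A hypoxia response element holds ACGTG or GCGTG at its core. Promoter windows were taken from RefSeq (GRCh38.p14) as the 250 bases before each annotated start, and both motifs were read on both strands. The E-box CACGTG, read by MYC and MXI1 family proteins, overlaps ACGTG and gives 2 matches in adjacent positions. Of the 36 measured members 32 had a window, and 29 of these held a match in at least 1 window, against 47.4% of 27305 genes with a window. Over all windows, 43.2% of 35116 held a match, against 39 of the 54 windows of these members. The members were listed for their part in this response, so neither share is independent evidence. The median G and C content was 58.0% over all windows and 68.6% over the members' windows, and its part in this was not tested. The windows below belong to members among the widest line differences (ALDOC, EPAS1, EGLN3) or among the smallest unadjusted p-values after PTK7 knockdown in H1299 (ADM, PFKFB3). SLC2A1 was also among those smallest p-values, and its window, not printed here, held 0 matches. Capitals mark the matches, 5′ to 3′.
ALDOC (chr17:28576896-28577145, minus strand): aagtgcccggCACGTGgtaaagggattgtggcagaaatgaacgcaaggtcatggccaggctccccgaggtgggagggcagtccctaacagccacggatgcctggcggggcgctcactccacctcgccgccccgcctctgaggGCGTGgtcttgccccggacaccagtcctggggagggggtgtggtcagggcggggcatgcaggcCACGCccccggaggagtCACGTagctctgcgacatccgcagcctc
EPAS1 (chr2:46297157-46297406, plus strand): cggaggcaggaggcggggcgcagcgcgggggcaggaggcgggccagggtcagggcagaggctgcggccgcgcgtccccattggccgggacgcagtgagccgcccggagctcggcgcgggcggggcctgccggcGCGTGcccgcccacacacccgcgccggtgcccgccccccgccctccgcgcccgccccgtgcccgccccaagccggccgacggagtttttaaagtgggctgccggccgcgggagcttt
EGLN3 (chr14:33951075-33951324, minus strand): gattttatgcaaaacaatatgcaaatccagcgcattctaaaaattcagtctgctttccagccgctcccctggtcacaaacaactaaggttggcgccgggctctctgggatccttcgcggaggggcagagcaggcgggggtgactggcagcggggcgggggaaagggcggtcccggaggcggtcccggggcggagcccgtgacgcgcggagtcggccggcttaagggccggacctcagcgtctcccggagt
ADM (chr11:10304823-10305072, plus strand): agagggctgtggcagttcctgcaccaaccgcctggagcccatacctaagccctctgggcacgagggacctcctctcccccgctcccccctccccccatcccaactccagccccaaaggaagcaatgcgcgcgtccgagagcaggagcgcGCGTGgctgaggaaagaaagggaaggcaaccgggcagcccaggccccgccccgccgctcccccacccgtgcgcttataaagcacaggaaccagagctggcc
PFKFB3, start 1 (chr10:6144671-6144920, plus strand): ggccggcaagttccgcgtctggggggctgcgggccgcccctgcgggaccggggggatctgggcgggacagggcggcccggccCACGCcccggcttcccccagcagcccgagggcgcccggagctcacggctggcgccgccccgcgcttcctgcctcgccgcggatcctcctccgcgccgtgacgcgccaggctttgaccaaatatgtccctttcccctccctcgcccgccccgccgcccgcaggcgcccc
PFKFB3, start 2 (chr10:6202682-6202931, plus strand): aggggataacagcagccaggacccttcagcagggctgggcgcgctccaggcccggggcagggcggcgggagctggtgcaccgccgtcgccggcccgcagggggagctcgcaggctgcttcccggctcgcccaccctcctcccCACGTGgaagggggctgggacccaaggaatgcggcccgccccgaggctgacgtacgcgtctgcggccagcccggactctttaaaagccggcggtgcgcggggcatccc
ALDOC held 5 matches, of which 2 come from a single E-box. EPAS1, ADM and the first PFKFB3 window held 1 each, and the second PFKFB3 window held an E-box. No match stood in the EGLN3 window, which says only that these letters are not in these bases. A match is a description of the sequence and not a site of binding.

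Levels are on the log2 scale of RMA, as deposited by the authors for each probe set, and differences are log2 differences from limma with their standard error. A gene is said to differ where its Benjamini-Hochberg adjusted p over all 18404 genes was under 0.05. Array medians over these genes ran from 6.27 to 6.33. Pearson r within a group ran from 0.981 to 0.997 across genes. Within a group the 2 arrays carry different hairpins, so in a fit of group means the scatter behind a p-value includes differences between hairpins. Each hairpin has 1 array per line and the labels name no repeat cultures. Technical scatter, scatter between cultures and hairpin differences therefore cannot be told apart within a group. PTK7, the target, read 5.73 (GFP), 6.03 (LUC), 5.63 (PTK7-1) and 5.53 (PTK7-2) in H1299, and 6.64, 6.86, 5.63 and 5.94 in the same order in H2009. Both PTK7 arrays were below both control arrays in each line, with 81.0% of the control signal left in H1299 and 51.4% in H2009. PTK7 stood below the median of all genes in every H1299 array and in both H2009 arrays with PTK7 hairpins. At such levels signal over background limits how far a difference can be measured. The averaged difference was -0.63 ± 0.12 and did not pass over all genes (limma adjusted p = 0.190). As a single gene named as the target, PTK7 had a 95% interval of -0.91 to -0.35 in the average (limma unadjusted p = 0.00103). By line it stood at -0.96 ± 0.17 in H2009 (limma unadjusted p = 0.000677) and at -0.30 ± 0.17 in H1299 (0.112). The labelled knockdown was thus seen for the target alone in H2009, was not shown in H1299, and did not pass over all genes in either line.

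Both lines are labelled as lung cancer cells and their epithelial markers differed. The mean log2 value of 6 epithelial genes (KRT8, KRT18, KRT7, KRT19, EPCAM, CDH1) lay between 6.22 and 6.79 in the H1299 arrays and between 11.2 and 11.3 in the H2009 arrays, and 5 of the 6 were higher in H2009 under control hairpins. In H1299 KRT8 and KRT18 were bright, from 8.68 to 11.6, while EPCAM and CDH1 stood between 3.32 and 4.19. The mean of the mesenchymal genes VIM, FN1, ZEB1 and CDH2 ran from 8.81 to 9.09 in H1299 and from 7.24 to 7.97 in H2009. Under control hairpins VIM, ZEB1 and CDH2 were higher in H1299, while FN1 went the other way (-3.29 ± 0.22), from 6.30 to 6.97 in H1299 and from 9.83 to 9.98 in H2009. The lung lineage factor NKX2-1 stood between 4.96 and 5.64 in H1299 and between 6.89 and 8.36 in H2009, and the surfactant genes SFTPB and SFTPC stood between 3.94 and 4.43 in both. Of the markers of blood, stromal and vessel cells, PTPRC stood between 2.78 and 3.01 and CD3E between 3.39 and 3.79 in all arrays, the fibroblast mean between 4.05 and 4.29 and the endothelial mean between 3.64 and 4.04. The fibroblast gene COL1A1 stood above that mean, between 6.09 and 6.37 in H1299 and between 6.77 and 6.93 in H2009. CD68, which is not limited to blood cells, stood between 9.59 and 10.48 in H1299 and between 7.76 and 8.63 in H2009. The epithelial and mesenchymal markers move with every line difference given here, and their part in it was not tested.

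The widest differences of these genes lay between the lines. Under control hairpins 18 of 36 members differed, against a background of 24.8% of all genes, and 15 of the 18 were higher in H2009 while 3 were higher in H1299. Without the GFP or LUC array of H1299 the count was 10 or 12, and without that of H2009 it was 9 or 11. Over all genes the calls were split evenly, with 12.3% higher in H2009 and 12.5% higher in H1299. Over the 4 hairpins, in a fit of hairpin plus line that shares the control arrays with the first, 25 members differed against a background of 41.0%, 21 higher in H2009 and 4 higher in H1299. Here the background was 18.6% higher in H2009 and 22.4% higher in H1299. Of the members, 14 differed by over 2-fold in each fit, against 13.1% of all genes under control hairpins and 13.4% over the 4 hairpins. All 4 H2009 arrays lay above all 4 H1299 arrays for 16 members (16.2% of all genes), and the reverse held for 5 (19.0%). The median H1299 minus H2009 difference over the members was -0.52 under control hairpins and -0.53 over the 4 hairpins, against 0.06 and 0.03 over all genes. In bulk RNA, fewer cells with a transcript and less of it per cell cannot be told apart.

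**Figure D1:**
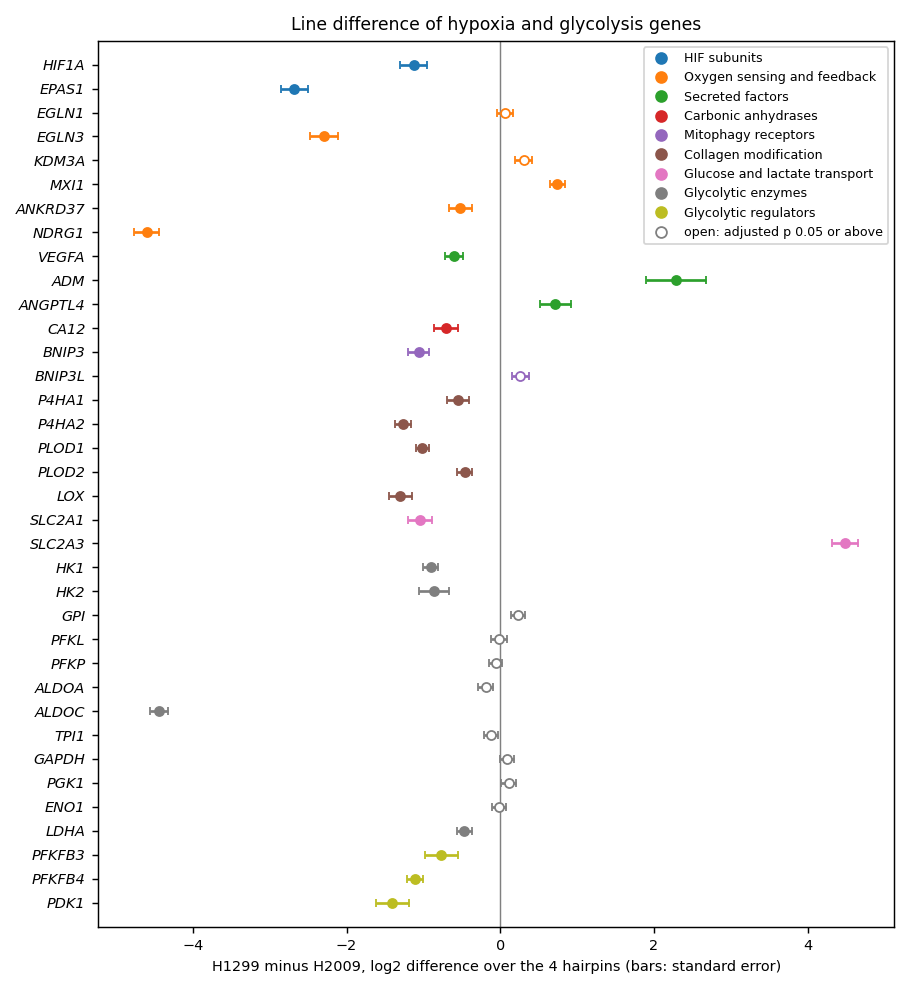
H1299 minus H2009 log2 difference of the 36 measured members over the 4 hairpins, with standard errors from limma, coloured by role and filled where the adjusted p was under 0.05. NDRG1 and ALDOC lie farthest toward H2009 at -4.60 and -4.44, SLC2A3 farthest toward H1299 at 4.49, and most enzymes of the central glycolytic path lie near 0.

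Both alpha subunit transcripts were higher in H2009. HIF1A, the broadly expressed subunit, read 10.64 (GFP), 10.60 (LUC), 9.58 (PTK7-1) and 10.07 (PTK7-2) in H1299, and 11.50, 11.33, 11.41 and 11.17 in the same order in H2009. EPAS1, which encodes HIF-2alpha, read 6.46 (GFP), 5.91 (LUC), 6.42 (PTK7-1) and 6.56 (PTK7-2) in H1299, and 9.14, 9.21, 9.08 and 8.64 in the same order in H2009. All H2009 arrays exceeded all H1299 arrays for both genes. For HIF1A the line difference was -0.79 ± 0.18 under control hairpins (adjusted p = 0.0192) and -1.13 ± 0.18 over the 4 hairpins (0.00141). The control-hairpin call for HIF1A was lost without any single control array (adjusted p from 0.0740 to 0.130). For EPAS1 it was -2.99 ± 0.22, a 7.94-fold higher level in H2009 (adjusted p = 0.000122).

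Of the 6 genes of oxygen sensing and feedback, 3 were higher in H2009 (EGLN3, NDRG1, ANKRD37) and 1 in H1299 (MXI1) over the 4 hairpins. EGLN3, a prolyl hydroxylase that is itself a HIF target, read 5.36 (GFP), 5.52 (LUC), 5.77 (PTK7-1) and 5.54 (PTK7-2) in H1299, and 8.18, 8.04, 7.41 and 7.72 in the same order in H2009. It was 6.36-fold higher in H2009 under control hairpins (-2.67 ± 0.16, adjusted p = 4.89e-05), with no overlap between the lines. EGLN1, the main oxygen sensor of the family, showed no detectable line difference over the 4 hairpins, with a 95% interval of -0.18 to 0.30. NDRG1, a stress-responsive HIF target, had the widest difference of all members. It read 5.02 (GFP), 4.98 (LUC), 4.96 (PTK7-1) and 4.99 (PTK7-2) in H1299, and 9.65, 9.36, 9.16 and 10.19 in the same order in H2009. The H1299 arrays were all near 5 and the H2009 arrays all above 9, a 22.7-fold difference under control hairpins (-4.50 ± 0.30, adjusted p = 8.59e-05). MXI1, a MYC antagonist, ran the other way. It read 7.19 (GFP), 7.07 (LUC), 7.30 (PTK7-1) and 7.12 (PTK7-2) in H1299, and 6.38, 6.23, 6.54 and 6.56 in the same order in H2009, higher in every H1299 array (0.83 ± 0.13, adjusted p = 0.00349). ANKRD37 was higher in H2009 over the 4 hairpins (-0.52 ± 0.14, adjusted p = 0.0218), and KDM3A, a histone demethylase, stood at 0.30 ± 0.12 (adjusted p = 0.0724).

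The secreted factors split. VEGFA, the vessel growth factor, read 9.23 (GFP), 8.82 (LUC), 8.93 (PTK7-1) and 8.96 (PTK7-2) in H1299, and 9.67, 9.17, 9.84 and 9.69 in the same order in H2009. The lines overlapped, and the difference of -0.40 ± 0.21 did not pass under control hairpins (adjusted p = 0.226), though it passed over the 4 hairpins at -0.61 ± 0.12 (0.00426). ADM, which encodes the vasodilator peptide adrenomedullin, read 7.35 (GFP), 7.30 (LUC), 9.62 (PTK7-1) and 8.59 (PTK7-2) in H1299, and 5.95, 6.01, 5.78 and 5.98 in the same order in H2009. Every H1299 array was above every H2009 array, by 1.35 ± 0.30 under control hairpins (adjusted p = 0.0161, from 0.0752 to 0.0927 without any single control array). ANGPTL4, an inhibitor of lipoprotein lipase, read 6.28 (GFP), 6.94 (LUC), 7.12 (PTK7-1) and 8.26 (PTK7-2) in H1299, and 6.20, 6.06, 6.67 and 6.82 in the same order in H2009. It overlapped between the lines and was higher in H1299 over the 4 hairpins (0.71 ± 0.20, adjusted p = 0.0240). Without the LUC array or the PTK7-2 array of either line that call was lost (adjusted p = 0.0810 and 0.0574), as it was with cyclic loess (0.0601) or no hairpin term (0.181).

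All 5 genes of collagen modification were higher in H2009 over the 4 hairpins. These were the prolyl hydroxylase subunits P4HA1 (-0.55 ± 0.14) and P4HA2 (-1.27 ± 0.10), the lysyl hydroxylases PLOD1 (-1.01 ± 0.09) and PLOD2 (-0.46 ± 0.09), and the crosslinking oxidase LOX (-1.30 ± 0.15), with adjusted p between 4.61e-05 and 0.0144. Under control hairpins PLOD1, P4HA2 and LOX passed, and PLOD2 did not (limma adjusted p = 0.0713), though it passed with the hairpin as a fixed (0.0193) or random block (0.0355). LOX was dim in H1299, between 4.48 and 4.59, and stood between 5.56 and 6.44 in H2009. Of the mitophagy receptor genes, BNIP3 was higher in H2009 (-1.06 ± 0.13, adjusted p = 0.000485) and BNIP3L was not called (0.26 ± 0.11, 0.112). CA12, a membrane carbonic anhydrase, was higher in H2009 (-0.70 ± 0.15, adjusted p = 0.00712).

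The glucose transporter genes pointed in opposite directions. SLC2A1 (GLUT1) read 9.76 (GFP), 9.69 (LUC), 10.63 (PTK7-1) and 10.39 (PTK7-2) in H1299, and 11.13, 11.05, 11.14 and 11.31 in the same order in H2009. SLC2A3 (GLUT3) read 9.39 (GFP), 9.11 (LUC), 10.00 (PTK7-1) and 10.37 (PTK7-2) in H1299, and 4.82, 5.0, 5.83 and 5.26 in the same order in H2009. SLC2A1 was higher in every H2009 array and SLC2A3 in every H1299 array. Under control hairpins the difference was -1.37 ± 0.13 for SLC2A1 (adjusted p = 0.000480) and 4.34 ± 0.23, 20.3-fold, for SLC2A3 (2.74e-05).

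Of the 12 measured glycolytic enzymes, 8 showed no called difference between the lines. GAPDH read 12.39 (GFP), 12.46 (LUC), 12.55 (PTK7-1) and 12.52 (PTK7-2) in H1299, and 12.41, 12.35, 12.33 and 12.47 in the same order in H2009, and its 95% interval for the line difference over the 4 hairpins was -0.13 to 0.30. PGK1 read 11.46 (GFP), 11.55 (LUC), 11.24 (PTK7-1) and 11.27 (PTK7-2) in H1299, and 11.33, 11.28, 11.15 and 11.32 in the same order in H2009, with an interval of -0.11 to 0.34. These intervals leave room only for differences well under 2-fold. ENO1 (-0.02 ± 0.09), TPI1 (-0.12 ± 0.09), GPI (0.23 ± 0.09), ALDOA (-0.19 ± 0.10), PFKL (-0.02 ± 0.11) and PFKP (-0.06 ± 0.09) were not called either. The other 4 (ALDOC, HK1, HK2, LDHA) were higher in H2009 over the 4 hairpins. ALDOC, the brain-type aldolase, read 4.63 (GFP), 4.73 (LUC), 5.15 (PTK7-1) and 4.70 (PTK7-2) in H1299, and 9.12, 9.23, 9.26 and 9.37 in the same order in H2009. Under control hairpins it was 22.5-fold higher in H2009 (-4.49 ± 0.17, adjusted p = 6.32e-06), the smallest p of any member in that comparison, while its ubiquitous counterpart ALDOA was not called. HK2, the inducible hexokinase, read 8.34 (GFP), 8.25 (LUC), 8.65 (PTK7-1) and 8.22 (PTK7-2) in H1299, and 9.17, 8.83, 9.07 and 9.86 in the same order in H2009, all H2009 arrays being above the H1299 arrays. It passed over the 4 hairpins (-0.86 ± 0.19, adjusted p = 0.00779) and not under control hairpins (0.119). HK1 passed in both fits (-0.91 ± 0.10 over the 4 hairpins, adjusted p = 0.000182).

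LDHA, which makes lactate from pyruvate, read 11.61 (GFP), 11.65 (LUC), 11.02 (PTK7-1) and 11.73 (PTK7-2) in H1299, and 12.08, 12.06, 11.68 and 12.05 in the same order in H2009. It was higher in H2009 over the 4 hairpins (-0.47 ± 0.10, adjusted p = 0.00617) and not called under control hairpins (0.246). The regulators of flux were all higher in H2009. PFKFB3, which makes the activator of phosphofructokinase, stood at -1.32 ± 0.14 under control hairpins (adjusted p = 0.000672), PFKFB4 at -1.11 ± 0.20 (0.00740), and PDK1, which holds back pyruvate dehydrogenase, at -1.06 ± 0.25 (0.0202).

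After PTK7 knockdown no member passed in limma, in the average over both lines, in H1299, in H2009 or in the difference between them. The background of calls was 0% of all genes in the average, 0.00543% (1 gene) in H1299, 0% in H2009 and 0% for the difference between the lines. At an unadjusted p under 0.05 there were 8 of 36 members in the average (9.88% of all genes), 5 higher (4.74%) and 3 lower (5.14%). There were 8 in H1299 (7.48%), 6 in H2009 (7.98%) and 5 for the difference between the lines (5.17%). In the average 22 members were above 0, against 55.8% of all genes. The median member difference was 0.06 in the average, 0.09 in H1299 and 0.01 in H2009, against 0.02, -0.003 and 0.03 over all genes. In H1299 both PTK7 arrays were above both control arrays for 11 members (15.6% of all genes) and below for 6 (16.1%). In H2009 they were above for 9 (26.0%) and below for 6 (18.9%). In both lines, 4 were above (4.93%), namely SLC2A1, SLC2A3, ANGPTL4 and HK1, and 1 was below (4.53%), BNIP3L. For SLC2A1 in H2009 the gap was narrow, from 11.13 (GFP) to 11.14 (PTK7-1), with a difference of 0.13 ± 0.13. For PFKFB3 and EGLN3 (5.66% of all genes for such opposite separation) both PTK7 arrays were above in H1299 and below in H2009. These 7 were named with their values in view.

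**Figure D2:**
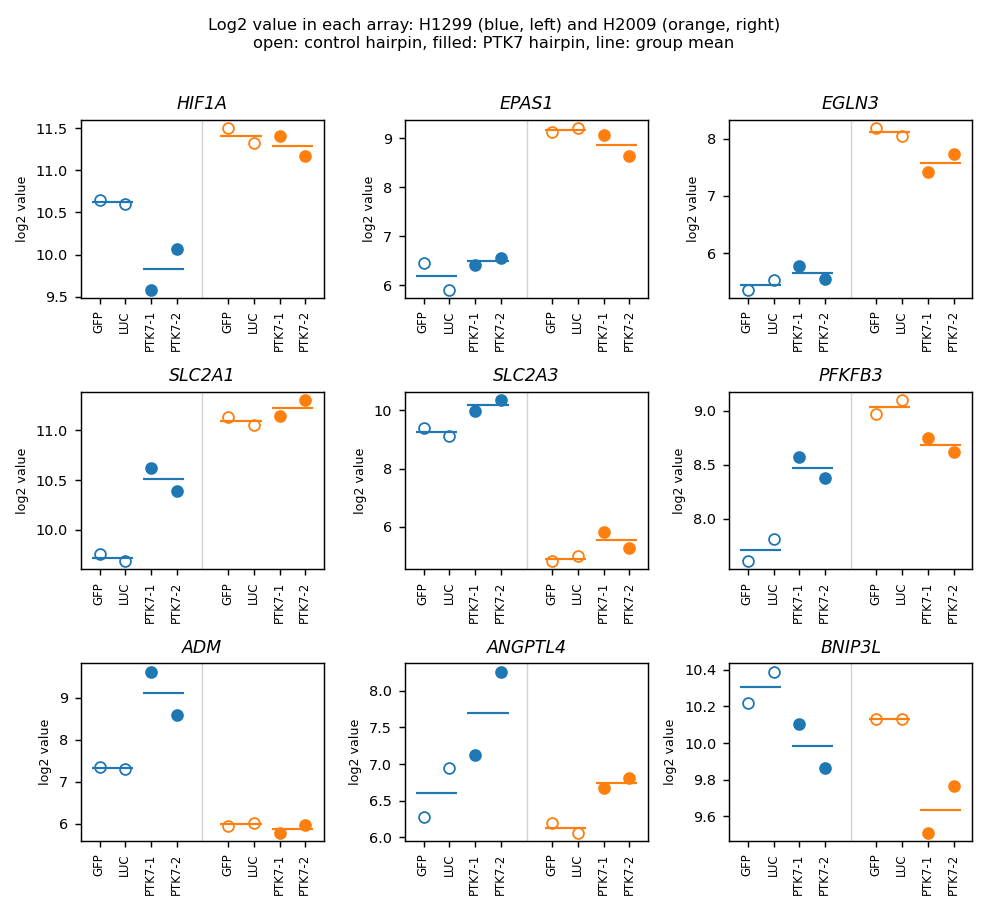
Log2 value of 9 members in each of the 8 arrays, H1299 in blue and H2009 in orange, with open points for control hairpins, filled points for PTK7 hairpins and lines for the means of 2 arrays. SLC2A1, PFKFB3 and ADM stand higher and HIF1A lower under both PTK7 hairpins in H1299, and none of these differences passed over all genes.

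In H1299 the smallest unadjusted p-values belonged to ADM, SLC2A1 and PFKFB3. ADM averaged 7.33 ± 0.04 (SD, n = 2) with the controls and 9.11 ± 0.73 (SD, n = 2) after knockdown. The difference was 1.78 ± 0.30, 3.43-fold in size (limma adjusted p = 0.294). Without the PTK7-2 array of H1299, ADM passed, at 2.30 (limma adjusted p = 0.0254), and without the PTK7-1 array it stood at 1.26 (0.0677). SLC2A1 stood at 0.79 ± 0.13 (adjusted p = 0.294) and PFKFB3 at 0.76 ± 0.14 (0.294). PFKFB3 itself read 7.61 (GFP), 7.82 (LUC), 8.57 (PTK7-1) and 8.38 (PTK7-2) in H1299, and 8.96, 9.10, 8.75 and 8.62 in the same order in H2009. Under both PTK7 hairpins it lay above the controls in H1299 and below them in H2009. HIF1A had a difference of -0.80 ± 0.18 in H1299 (adjusted p = 0.364) and of -0.12 ± 0.18 in H2009, where the groups overlapped. PDK1 stood at -0.74 ± 0.25 in H1299 (adjusted p = 0.553), SLC2A3 at 0.93 ± 0.23 (0.380) and ANGPTL4 at 1.08 ± 0.37 (0.566).

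In H2009 the smallest unadjusted p-values belonged to EGLN3, BNIP3L and SLC2A3. EGLN3 had a difference of -0.54 ± 0.16 (limma adjusted p = 0.459), against 0.22 ± 0.16 in H1299, where the LUC and PTK7-2 arrays nearly met. BNIP3L read 10.22 (GFP), 10.39 (LUC), 10.10 (PTK7-1) and 9.86 (PTK7-2) in H1299, and 10.13, 10.13, 9.51 and 9.76 in the same order in H2009. Both PTK7 arrays were lowest in each line, with differences of -0.49 ± 0.15 in H2009 (adjusted p = 0.479) and -0.32 ± 0.15 in H1299. SLC2A3 stood at 0.63 ± 0.23 in H2009 (adjusted p = 0.538), on a level that was dim there. KDM3A had -0.34 ± 0.13, PFKFB3 -0.35 ± 0.14 and LOX 0.52 ± 0.21, none past the threshold. VEGFA was above the controls with both PTK7 hairpins in H2009 (0.34 ± 0.21, adjusted p = 0.719) and overlapped them in H1299 (-0.08 ± 0.21). The gap in H2009 was narrow, from 9.67 (GFP) to 9.69 (PTK7-2), while the LUC array there read 9.17.

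**Figure D3:**
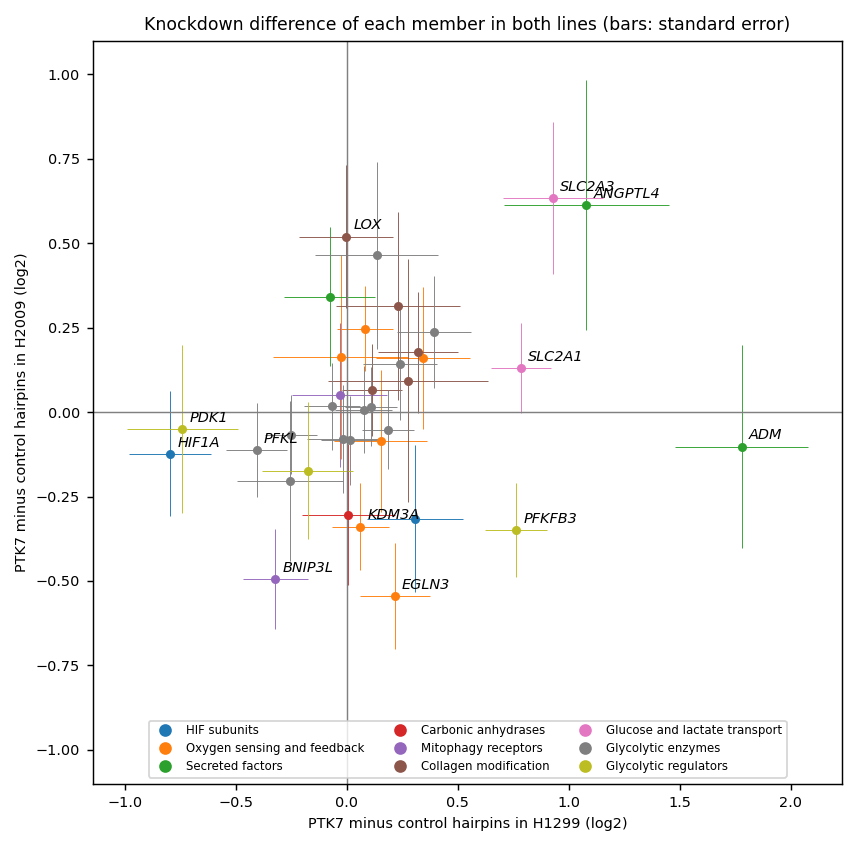
Difference between PTK7 and control hairpins (log2, with standard errors from limma) for each of the 36 members, in H1299 on the x axis and in H2009 on the y axis. ADM at 1.78 in H1299 and -0.10 in H2009 lies farthest from the centre, SLC2A3 and ANGPTL4 are above 0 in both lines, and PFKFB3 and EGLN3 are above 0 in H1299 and below 0 in H2009.

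Averaged over the lines, SLC2A3 had 0.78 ± 0.16 (limma adjusted p = 0.196), SLC2A1 0.46 ± 0.09 (0.198) and ADM 0.84 ± 0.21 (0.265). With the hairpin as a fixed block shared by the lines, the limma adjusted p was 0.0918 for SLC2A3, 0.102 for SLC2A1 and 0.103 for ADM, and with the hairpin as a random block it was 0.341, 0.327 and 0.418. With the fixed block again 0 of 36 members passed, against a background of 0.810% of all genes. With the random block 0 members and 0 of all genes passed in the average. The fixed block gave 0 members in H1299 (0.0217%), in H2009 (0%) and for the difference between the lines (0.00543%), and 19 for the line difference under control hairpins (31.3%). LDHA had -0.23 ± 0.17 in the average and HK2 0.30 ± 0.20. GAPDH had a 95% interval of -0.13 to 0.26 and PGK1 of -0.36 to 0.04. The 12 glycolytic enzymes were balanced in the average, with 6 above and 6 below 0 and a median of 0.01. Tested directly between the lines, PFKFB3 differed by 1.11 ± 0.20 (adjusted p = 0.848), ADM by 1.88 ± 0.42 (0.848) and SLC2A1 by 0.65 ± 0.19 (0.855), so no difference in response was shown for any member.

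Between the 2 PTK7 hairpins 1 of 36 members differed, against a background of 3.73% of all genes (1.79% lower with PTK7-1, the direction of this gene), a share near the background. P4HA2, which hydroxylates prolines of collagen, read 6.98 (GFP), 7.25 (LUC), 6.90 (PTK7-1) and 7.88 (PTK7-2) in H1299, and 8.47, 8.48, 8.16 and 8.97 in the same order in H2009. In each line the PTK7-2 array was the highest of the 4 and the PTK7-1 array the lowest. The PTK7-1 minus PTK7-2 difference was -0.89 ± 0.14 (limma adjusted p = 0.0209). The call was lost without the PTK7-1 array of H1299 (adjusted p = 0.149), the PTK7-2 array of H1299 (0.0840) or the PTK7-1 array of H2009 (0.118). LDHA came next at -0.54 ± 0.14 (adjusted p = 0.0826), lowest of each line with PTK7-1. It passed with a trended prior (limma adjusted p = 0.0119). EGLN1 read 8.49 (GFP), 8.62 (LUC), 8.65 (PTK7-1) and 9.15 (PTK7-2) in H1299, and 8.69, 8.49, 8.55 and 8.95 in the same order in H2009. It was highest with PTK7-2 in each line, with a difference of -0.45 ± 0.15 (adjusted p = 0.149). At an unadjusted p under 0.05 there were 6 members (18.3% of all genes), all lower with PTK7-1, against 10.1% of all genes in that direction. A difference above 0 was seen for 13 members, against 45.5% of all genes, and for 1 of the 12 glycolytic enzymes.

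**Figure D4:**
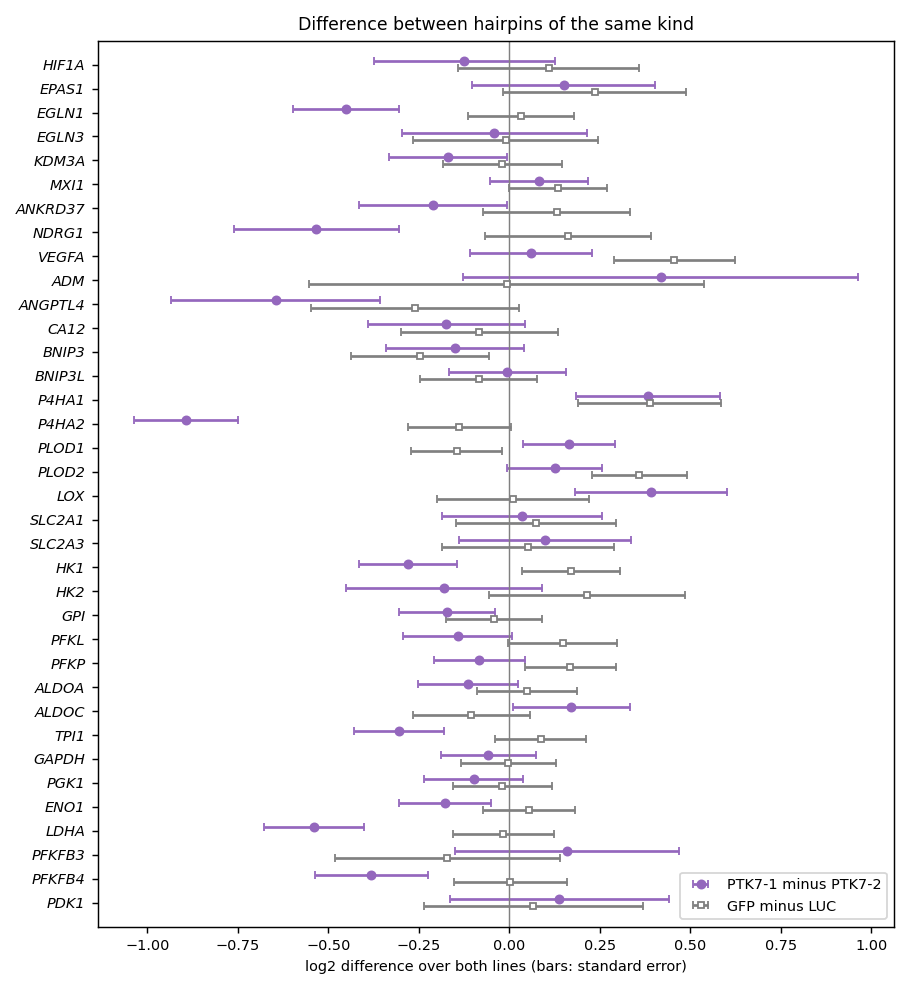
Difference between the 2 PTK7 hairpins (filled circles) and between the 2 control hairpins (open squares) for each member over both lines, in log2 units with standard errors from limma. P4HA2 lies at -0.89 for the PTK7 hairpins and -0.14 for the control hairpins, and LDHA, NDRG1 and EGLN1 also lie toward PTK7-2. For NDRG1 this came from H2009, with 9.16 (PTK7-1) and 10.19 (PTK7-2), against 4.96 and 4.99 in H1299.

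Between the GFP and LUC hairpins no member differed (0% of all genes in limma), and 2 of 36 had an unadjusted p under 0.05 (3.65% of all genes). They were PLOD2 at 0.36 ± 0.13 and VEGFA at 0.46 ± 0.17, with P4HA1 next at 0.39 ± 0.20, each with adjusted p = 1.000. PLOD2 read 9.03 (GFP), 8.68 (LUC), 9.21 (PTK7-1) and 9.14 (PTK7-2) in H1299, and 9.58, 9.20, 9.66 and 9.48 in the same order in H2009. P4HA1 read 8.63 (GFP), 8.14 (LUC), 9.01 (PTK7-1) and 8.22 (PTK7-2) in H1299, and 9.03, 8.76, 9.20 and 9.22 in the same order in H2009. For both genes and VEGFA the GFP array was above the LUC array in each line.

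Further genes of the pathway were taken from 5 other lists. Of all genes, 24.8% differed between the lines under control hairpins (12.5% higher in H1299, 12.3% higher in H2009), 31.3% with the fixed block and 29.2% with the random block. Of 15 measured genes that control HIF, 2 were higher in H1299 and 2 in H2009 under control hairpins, a share near the background, namely ELOC (0.58 ± 0.13) and SIAH2 (0.41 ± 0.12) on the first side and the coactivator gene EP300 (-1.58 ± 0.12) and CITED2 (-1.18 ± 0.20) on the second. The SIAH2 call (limma adjusted p = 0.0469) was lost with the fixed block (0.0607) and not with the random block (0.0297). No gene of this list passed after knockdown without a block or with the random block. In the average 2 passed with the fixed block, against 0.810% of all genes, where the random block called 0 genes in all. ARNT, the partner of the HIF alpha subunits, read 8.93 (GFP), 9.05 (LUC), 8.04 (PTK7-1) and 8.56 (PTK7-2) in H1299, and 9.07, 9.22, 8.29 and 8.71 in the same order in H2009. CITED2, which competes with HIF for its coactivators, read 8.75 (GFP), 8.37 (LUC), 9.55 (PTK7-1) and 9.64 (PTK7-2) in H1299, and 9.90, 9.58, 9.80 and 10.18 in the same order in H2009. ARNT was lower with both PTK7 hairpins in each line and CITED2 was higher with both in H1299 and overlapped in H2009. The averaged differences were -0.66 ± 0.15 for ARNT (limma adjusted p = 0.230, 0.0465 with the fixed and 0.321 with the random block) and 0.65 ± 0.14 for CITED2 (0.208, 0.0491 with the fixed and 0.304 with the random block). Both calls therefore rest on the fixed form of the block. Both were named with their values in view.

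Of 34 other hypoxia-induced genes 5 were higher in H1299 (12.5% of all genes) and 8 in H2009 (12.3%) under control hairpins, and 20 differed with the fixed block (31.3%). The smallest adjusted p-values belonged to PPP1R3C (-3.63 ± 0.17), a glycogen regulator, RRAGD (2.21 ± 0.16) and RAB20 (-2.62 ± 0.23). Of 25 other genes of glycolysis and lactate handling, 6 were higher in H2009 (12.3% of all genes) and 0 in H1299 (12.5%), and 9 differed with the fixed block. For these 25 genes the totals over both directions are near the 24.8% and 31.3% of all genes. FBP1, which opposes phosphofructokinase in glucose synthesis, stood at -4.41 ± 0.27, the monocarboxylate transporter gene SLC16A7 at -3.50 ± 0.21, and LDHC at -2.19 ± 0.24. LDHC stood below the median of all genes in every array, and FBP1, SLC16A7, PPP1R3C and RAB20 did so in every H1299 array. At such levels signal over background limits how far a difference can be measured. Of 12 genes that feed pyruvate into mitochondria, 3 were higher in H2009 (12.3% of all genes) and 0 in H1299 (12.5%), a total near the 24.8% of all genes. They were the pyruvate dehydrogenase kinase genes PDK3 (-2.22 ± 0.17) and PDK4 (-1.72 ± 0.34), and pyruvate carboxylase PC (-1.51 ± 0.31). PDK4 too stood below the median of all genes in every H1299 array. Of 8 pentose phosphate genes, 2, TKT (-0.61 ± 0.15) and TALDO1 (-0.65 ± 0.16), were higher in H2009 (12.3% of all genes in that direction), a total again near the background of 24.8%. None of these 4 lists had a call after knockdown in any of the 4 knockdown comparisons, without a block or with either form of it. In the average 7 of 34, 1 of 25, 1 of 12 and 2 of 8 genes had an unadjusted p under 0.05, against 9.88% of all genes.

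Between the PTK7 hairpins 6 of the 94 measured genes of the 5 lists passed, against 3.73% of all genes. The directions given here are of PTK7-1 against PTK7-2 and not against the controls. BPGM, which diverts a glycolytic intermediate into a regulator of haemoglobin, was higher with PTK7-1 (1.61 ± 0.18, adjusted p = 0.00820). It read 7.86 (GFP), 7.97 (LUC), 8.31 (PTK7-1) and 6.43 (PTK7-2) in H1299, and 7.95, 8.19, 8.52 and 7.17 in the same order in H2009. PKM, the pyruvate kinase gene, was lower with PTK7-1 (-0.73 ± 0.14, 0.0346). Glycogen synthase GYS1 was lower (-1.24 ± 0.16, 0.0115) and JMJD6 higher (0.91 ± 0.18, 0.0392). Of the pyruvate dehydrogenase subunits, PDHB was lower (-1.09 ± 0.13, 0.0107) and PDHX higher (0.71 ± 0.14, 0.0439). In each line BPGM, JMJD6 and PDHX were lowest with PTK7-2, and PKM, GYS1 and PDHB were lowest with PTK7-1.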

How the data were processed

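RNA of 8 arrays was measured, 2 arrays in each of 4 groups. The authors deposited log2 values for each probe set. The submitters' processing notes name RMA and R 2.14.0. The package and the probe annotation they used are not given in the sources used here. Of 32321 probe sets, 19158 had a single gene symbol, 1388 several and 11775 none listed. The brightest probe set was kept per gene, which left 18404 genes. TPI1 was the only measured member with more than 1. Detection calls were not used here, and the number of arrays limits the precision.

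Fits used limma 3.58.1 in R 4.3.3 (lmFit, eBayes), and p-values were adjusted by Benjamini-Hochberg across the whole gene table with a threshold of 0.05. Knockdown differences, their difference between lines and the line difference under control hairpins came from a mean per group. The line difference over the 4 hairpins and the differences between hairpins came from hairpin plus line. Each hairpin occurs once per line, and its deviations from the group mean correlated between the lines (r = 0.230 for control and 0.407 for PTK7 hairpins across genes), so the hairpin pairs the arrays and a blocked fit was run beside the first. Alternatives were quantile, cyclic loess and median scaling, a filter that drops the 40% of genes with the lowest mean, averaging of probe sets, a trended prior, the hairpin as a fixed or random block or left out, a single line alone, and each array left out in turn. The limma script was tested on simulated data. With 2 arrays per group, the lone array left in a group is assumed to vary like the other groups.

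Values in every array are given for HIF1A, EPAS1, VEGFA, SLC2A1, HK2, LDHA, PGK1, GAPDH and EGLN3, for members called between hairpins or after knockdown, for the 3 smallest p-values per comparison and for the 4 widest line differences per direction. Of the other pathway lists, up to 3 called genes per list and comparison are named. The members and lists were chosen with earlier results of these data known. A value after ± is the limma standard error, or the SD where marked. Sequences are from RefSeq. Plots used Python 3.11.15 and matplotlib 3.10.9.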

Additional observations from a re-analysis of the deposited data

Results flagged for a closer look

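PFKFB3 and EGLN3 stood out because both PTK7 arrays lay beyond both control arrays in each line, upward in H1299 and downward in H2009. For EGLN3 in H1299 the gap was narrow, from 5.52 (LUC) to 5.54 (PTK7-2), on a dim level, and the knockdown difference there was 0.22 ± 0.16. For PFKFB3 the knockdown difference in H1299 minus that in H2009 was 1.11 ± 0.20, and for EGLN3 it was 0.76 ± 0.22. Neither passed the direct limma test over all genes (adjusted p = 0.848 and 0.857). These were 2 of 36 members, against 5.66% of all genes with opposite separation in the lines, so the share of members is near the background.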

How the results depend on the processing

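Each of the 8 comparisons was refitted under the alternatives that apply to it. The count of members that passed stayed within 1.5 times the reported count in 117 of the 125 pairs of a comparison and an alternative. In the 4 knockdown comparisons and between the control hairpins the reported count was 0, so there the count could only stay at 0 or rise. After knockdown in H1299 it was 0, and with each array left out in turn it ran from 0 to 1, where the 1 is ADM without the PTK7-2 array of H1299. Under control hairpins the line difference ran from 9 to 20 members, with the lower counts (9, 10, 11 and 12) where a control array was left out and its group kept 1 array. Between the PTK7 hairpins the count ran from 0 to 1 with an array left out and was 2 with a trended prior, P4HA2 and LDHA. With the hairpin as a fixed replicate block (a paired fit) 0 members passed in each of the 4 knockdown comparisons and 19 differed between the lines under control hairpins. Without the replicate block, 22 members differed between the lines over the 4 hairpins. No reported difference of a member reversed its direction under these alternatives, and the scalings moved the median of all genes by at most 0.06. Over all genes, calls under control hairpins ran from 2196 to 5767, and between the PTK7 hairpins from 0 without the PTK7-1 array of H1299 to 943 without the PTK7-2 array of H2009, with 917 when the dimmest genes were left out. In the averaged knockdown difference 149 genes passed with the fixed block, 0 with the random block, 0 without a block and up to 5 with an array left out; in H1299 the count ran from 0 to 8. The cause of a lost call was not tested, also where a lone array was left in a group. In every array of their dimmer line, LOX, ALDOC, NDRG1, EGLN3, PFKFB4, ANKRD37 and CA12 (H1299) and SLC2A3 and ADM (H2009), all called between the lines, stood below the median of all genes, where signal over background limits how far a difference can be measured.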

Other observations

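TPI1, the triosephosphate isomerase gene, was read by 2 probe sets that differ in brightness. The brighter one (8180371) stood between 11.2 and 11.6 in the 8 arrays and the dimmer one (7953508) between 5.12 and 5.66. In each line the PTK7-1 array was the lowest with both probe sets.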
